A study of Saccharomyces cerevisiae with 12 samples.

Results

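The 26S proteasome genes of budding yeast were followed in wild type (WT) and Spt4-AA cells, with and without osmostress. The members were listed by systematic name: the 14 genes of the 20S core (7 of the alpha ring and 7 of the beta ring), the 6 *RPT* ATPase genes, 12 *RPN* genes of the 19S regulatory particle, and the regulator gene *RPN4*. All 33 are among the 7126 genes of the count table and all passed the filter on low counts that left 6040 genes for testing. The groups were Spt4-AA cells taken 15 min after addition of 0.4 M NaCl, Spt4-AA cells without stress, WT cells under the same NaCl treatment, and WT cells without stress, with 3 biological replicates each (12 libraries). In the Spt4-AA strain *SPT4*, which encodes a transcription elongation factor, carries T42A and S43A, changes of residues that the Hog1 kinase phosphorylates upon osmostress. Both strains are BY4741 haploids of mating type *MATa* in log phase on YPD medium, carry *met15*-delta 0, *ura3*-delta 0, *leu2*-delta 0 and *his3*-delta 1, and express Spt4 with a TAP tag marked by *kanMX4*, so the controls carry the tag too. How many isolates of each genotype were used is not given in the sources used here.

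The proteasome degrades proteins that carry ubiquitin chains. Its 20S core is a stack of alpha and beta rings with the proteolytic sites inside, and its 19S particle binds the ubiquitin chain, removes it, and unfolds the substrate with a ring of Rpt ATPases. In yeast the genes are controlled together by Rpn4, a transcription factor that binds the proteasome-associated control element (PACE) in their promoters. Rpn4 is itself a short-lived substrate of the proteasome, which closes a feedback loop, and *RPN4* is in turn a known target of stress factors such as Yap1, Pdr1, Pdr3 and Hsf1.

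Each library held 12903162 to 21909524 reads counted on genes. Levels are given as normalised CPM, counts scaled by the total of the library and its TMM factor (0.8756 to 1.2456). They are relative levels of polyadenylated RNA that depend on this scaling, and not plain shares of a library. Less RNA per cell cannot be told apart from fewer cells in such values. A salt response is the log2 fold change (log2FC) of NaCl over no stress. The difference in salt response is the log2FC of Spt4-AA minus that of WT. A gene was called higher or lower where the quasi-likelihood F-test of edgeR gave a p under 0.05 after Benjamini-Hochberg adjustment over all 6040 genes tested, which is the adjusted p given throughout. *SPT4* itself had 12.77 to 19.22 normalised CPM in Spt4-AA under NaCl and 7.78 to 11.62 without stress, against 18.19 to 21.08 in WT under NaCl and 12.73 to 17.29 without stress, and counts per gene cannot show the substitutions. Replicates 1 and 2 of Spt4-AA under NaCl carry library numbers in their labels apart from the run of the other 10. Whether they were made at another time is not given in the sources used here. A model term for these 2 libraries, like leaving both out, rests stressed Spt4-AA on replicate 3 alone. From such fits only log2FC are given for comparisons with that group. Replicate 2 of that group also held 139 counts on *LEU2*, *MET17* (the gene of the *met15* allele) and *URA3* together, against at most 2 in the other 11 libraries, although the strain lacks these genes. Over the 5716 protein-coding genes tested, the deviation of a library from its group mean ran with coding length, with Spearman's rho of -0.36 and -0.42 in those 2 libraries, 0.57 in replicate 3 of the same group, and -0.32 to 0.30 in the other 9. Over the 32 subunit genes the rho was -0.39 and -0.52 in those 2 libraries and 0.70 in replicate 3. It was -0.57 to 0.60 in the other 9.

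The Rpn4 site is shown first because it is what most of the subunit genes share. In the R64 genome (RefSeq annotation), a window from 250 bases before to 50 bases after the annotated start codon was searched on both strands for PACE (GGTGGCAAA). It was found in 27 of the 32 subunit genes (84.4%), against 72 of 6020 protein-coding genes (1.2%). One variable base (GGTGGCNAA, which takes in every PACE match) added *RPN10* and *RPN13*, giving 29 of 32 against 1.78% of all windows. *PRE5*, *PUP1* and *RPN8* held neither form. Matches began 84 to 183 bases before the start codon, with a median of 120, on the strand of the gene in 19 windows and on the other strand in 8. The sites of the genes that lead the comparisons below are printed here 5′ to 3′ on the strand of the gene, with the match in capitals and 10 bases on either side.
PRE10 (chrXV:1018856-1018884, minus strand): cctctaaatcGGTGGCAAAaataagaaag
PRE9 (chrVII:761223-761251, plus strand): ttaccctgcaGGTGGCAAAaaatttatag
PRE4 (chrVI:249959-249987, minus strand): tggtttagaaTTTGCCACCttaaatacgt
PRE7 (chrII:141150-141178, plus strand): aaactcaaagGGTGGCAAAaacaagcggt
RPT5 (chrXV:544855-544883, plus strand): gccaatatgtGGTGGCAAAaatgaattaa
RPT1 (chrXI:174048-174076, plus strand): attaccgaatTTTGCCACCcgaaaactaa
RPT2 (chrIV:437906-437934, plus strand): gtttttctccGGTGGCAAAtgtctctttt
RPT4 (chrXV:813802-813830, minus strand): aatagtggaaTTTGCCACCgaagggaaag
RPN1 (chrVIII:164838-164866, minus strand): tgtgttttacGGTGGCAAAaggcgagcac
RPN2 (chrIX:220801-220829, minus strand): atttattttcGGTGGCAAAactggataca
RPN3 (chrV:196843-196871, plus strand): acgaaaaacaTTTGCCACCcaagaaagag
RPN5 (chrIV:190776-190804, plus strand): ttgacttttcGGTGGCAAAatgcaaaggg
RPN10, relaxed form (chrVIII:498968-498996, plus strand): caggcgggttTTCGCCACCggaatttaca
RPN13, relaxed form (chrXII:965656-965684, minus strand): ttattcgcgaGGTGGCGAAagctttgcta

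**Figure D1:**
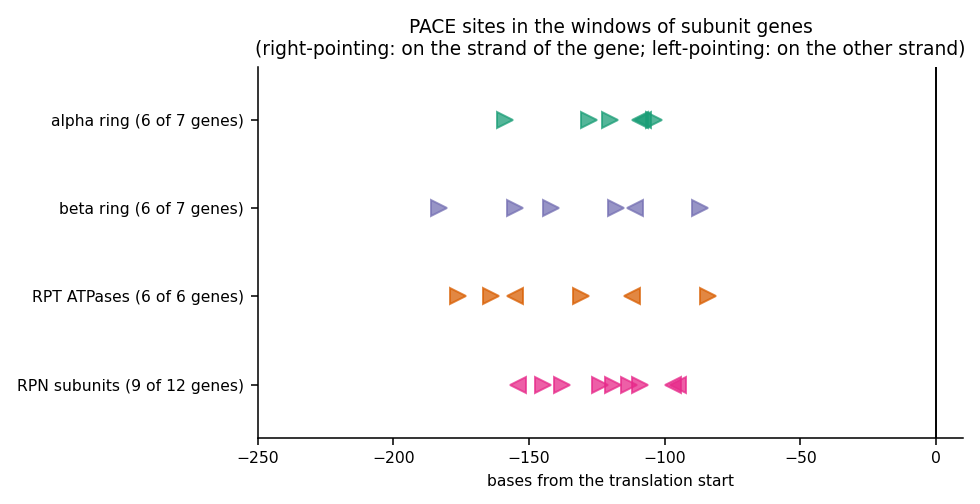
Position of each PACE match relative to the annotated start codon (0, in bases) for the 27 subunit genes that hold one, by class, with triangles pointing right on the strand of the gene and left on the other strand. All matches lie 84 to 183 bases before the start codon.

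The window of *RPN4* itself holds no PACE and 1 heat shock element (searched as GAANNTTCNNGAA or its reverse TTCNNGAANNTTC, found in 0.78% of all windows). In a longer window of 600 bases before the start, chosen after the shorter one had been searched, *RPN4* again held no PACE. It held 2 sites of the Pdr1/Pdr3 type (PDRE, TCCGNGGA, in 3.52% of all windows of this length), 1 Yap1 site (TTACTAA, 13.71%) and 2 heat shock elements (1.69%). These matches are shown because Yap1, Pdr1, Pdr3 and Hsf1 are reported regulators of the gene. Whether these positions are the reported sites was not tested. Each is printed with the match in capitals and 8 bases on either side.
RPN4, PDRE, 442 bases before the start (chrIV:417135-417158, minus strand): taacaagtTCCGTGGAactcaaag
RPN4, PDRE, 399 bases before the start (chrIV:417092-417115, minus strand): cgaaccttTCCACGGAtaatcacg
RPN4, Yap1 site, 374 bases before the start (chrIV:417068-417090, minus strand): gatcgctaTTACTAAtagccgtt
RPN4, heat shock element, 348 bases before the start (chrIV:417036-417064, minus strand): agtgatggTTCTAGAAAGTTCcgtttcgg
RPN4, heat shock element, 21 bases before the start (chrIV:416709-416737, minus strand): caaaagttTTCTAGAATTTTCaagcaatc
The stress response element of Msn2 and Msn4 (STRE, AGGGG) was in 8 of the 32 subunit windows (25.0%) against 21.56% of all windows. The PDRE was in 1 of the 32 (1.21% of all windows), the Yap1 site in 3 (7.49%), and the heat shock element in none. A match of letters is a description and does not show that a factor binds.

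*RPN4* (YDL020C, chromosome IV, 415113 to 416708, minus strand, no intron) was induced by NaCl in WT and was lower in stressed Spt4-AA cells than in stressed WT cells. It had 77.1, 73.2 and 77.8 normalised CPM in the Spt4-AA libraries under NaCl, against 66.2, 67.2 and 69.1 in Spt4-AA libraries without stress. In WT it had 115.4, 113.7 and 114.2 normalised CPM under NaCl, against 63.8, 59.5 and 62.1 without stress. None of the 4 groups overlapped in *RPN4*, and the 3 stressed WT libraries lay above all other libraries. The salt response was a log2FC of 0.17 (95% interval 0.01 to 0.33, adjusted p = 0.0556 by edgeR) in Spt4-AA, which was not called. In WT it was 0.89 (95% interval 0.73 to 1.05, edgeR adjusted p = 5.62e-08), a 1.85-fold rise. Under NaCl *RPN4* was lower in Spt4-AA than in WT by a log2FC of -0.59 (standard error 0.07, edgeR adjusted p = 2.75e-05). Without stress the log2FC between the strains was 0.13 (95% interval -0.03 to 0.29, edgeR adjusted p = 0.862).

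The difference in salt response of *RPN4* was -0.72 on the log2 scale (95% interval -0.95 to -0.49, edgeR adjusted p = 0.000308). It stayed between -0.74 and -0.69 when each of the 12 libraries was left out in turn, and was called in all 12 of these fits. With a term for the 2 libraries numbered apart, which leaves replicate 3 alone for stressed Spt4-AA, it was -0.68. With an offset for gene length in each library, chosen after seeing the data, it was -0.62 (edgeR adjusted p = 0.000482). The call of the response within Spt4-AA was less settled, since it passed the threshold under library totals alone (log2FC 0.33, edgeR adjusted p = 0.0301), with at least 10 counts required in every library (log2FC 0.20, edgeR adjusted p = 0.0268), with the length offset (edgeR adjusted p = 0.0382) and without replicate 2 of stressed Spt4-AA (edgeR adjusted p = 0.0469, the lowest of the 12 such fits, of which the highest was 0.14). *RPN4* also had the smallest spread between replicates of the 33 genes in WT under NaCl, a coefficient of variation of 0.78% against a median of 6.3%. This was not so in the other groups. There its coefficient was 3.27% in Spt4-AA under NaCl, 2.16% in Spt4-AA without stress and 3.48% in WT without stress. These stood at places 4, 6 and 8 from the lowest.

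**Figure D2:**
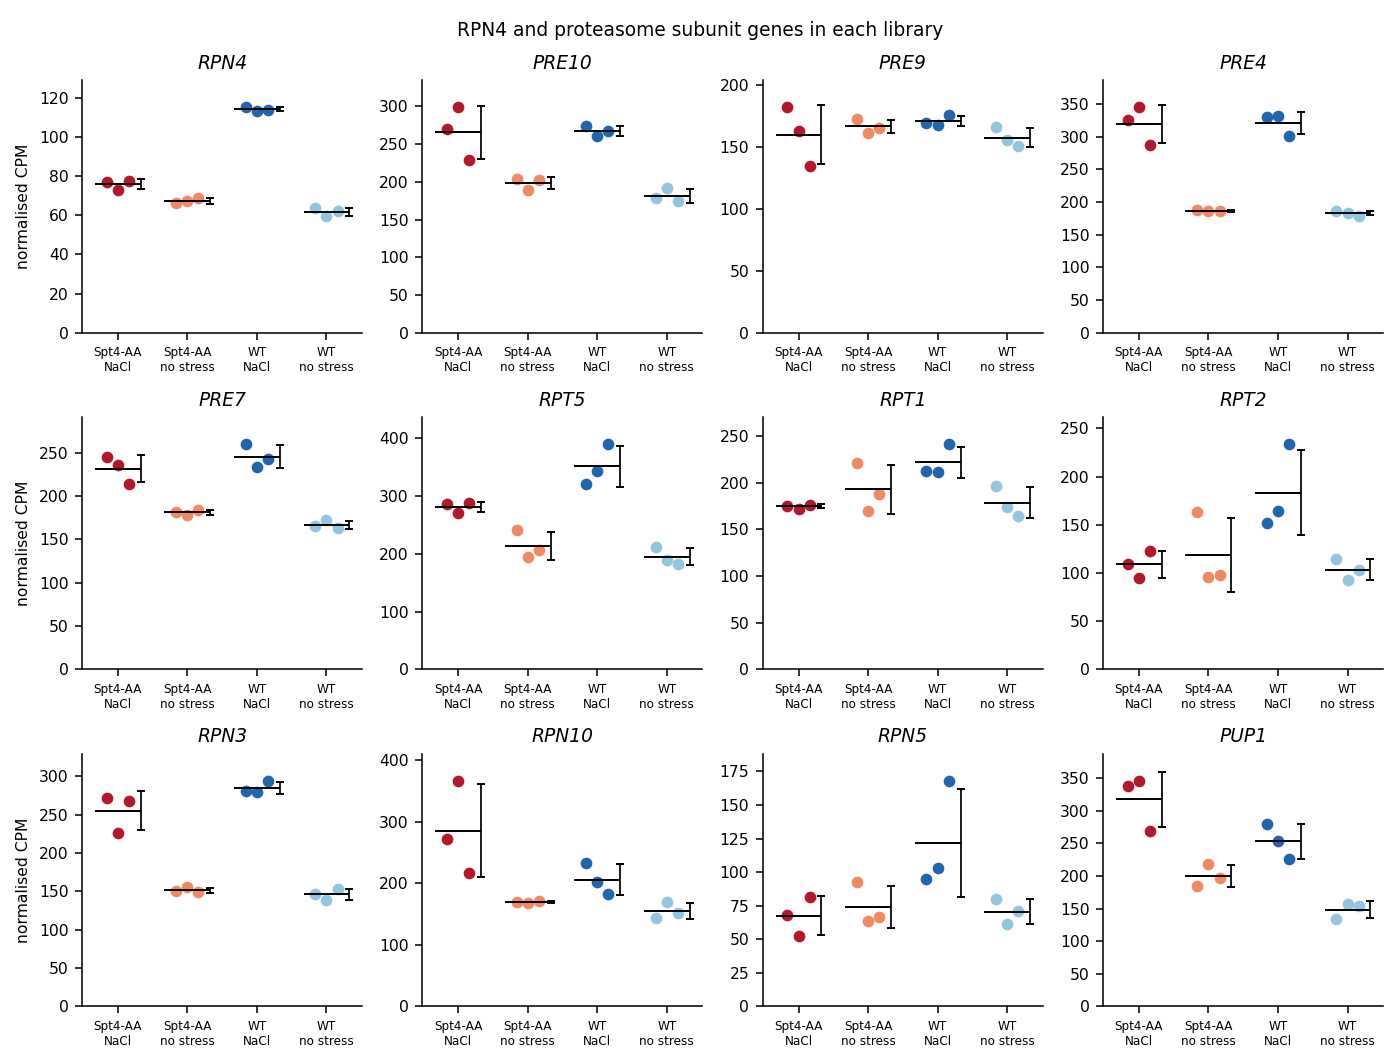
Normalised CPM of *RPN4* and 11 subunit genes in each of the 12 libraries (points), with the group mean (line) and its SD (bar, n = 3), on axes that start at 0. *RPN4* is at 73.2 to 77.8 normalised CPM in stressed Spt4-AA cells and at 113.7 to 115.4 in stressed WT cells, while *PRE4* overlaps between the strains.

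Upon NaCl most subunit genes rose in both strains, by less than 2-fold. Of the 33 members 23 were called higher and none lower in Spt4-AA, where 34.9% of all genes tested were called higher and 33.4% lower. In WT 32 were called higher and none lower, beside 36.4% and 33.9% of all genes. The median log2FC of the 33 members was 0.43 in Spt4-AA and 0.70 in WT, and over all genes tested it was 0.012 in Spt4-AA and 0.033 in WT. No member passed the threshold with a change of at least 2-fold in either strain, although 30.6% of all genes did in Spt4-AA and 37.0% in WT. Together they took 0.631 to 0.784% of the counts of a library in stressed Spt4-AA cells, against 0.455 to 0.519% in unstressed Spt4-AA cells, and 0.84 to 0.972% in stressed WT cells against 0.429 to 0.479% in unstressed WT cells. With the library-number term, which leaves replicate 3 alone for stressed Spt4-AA, the median log2FC of the 33 members in Spt4-AA was 0.35.

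**Figure D3:**
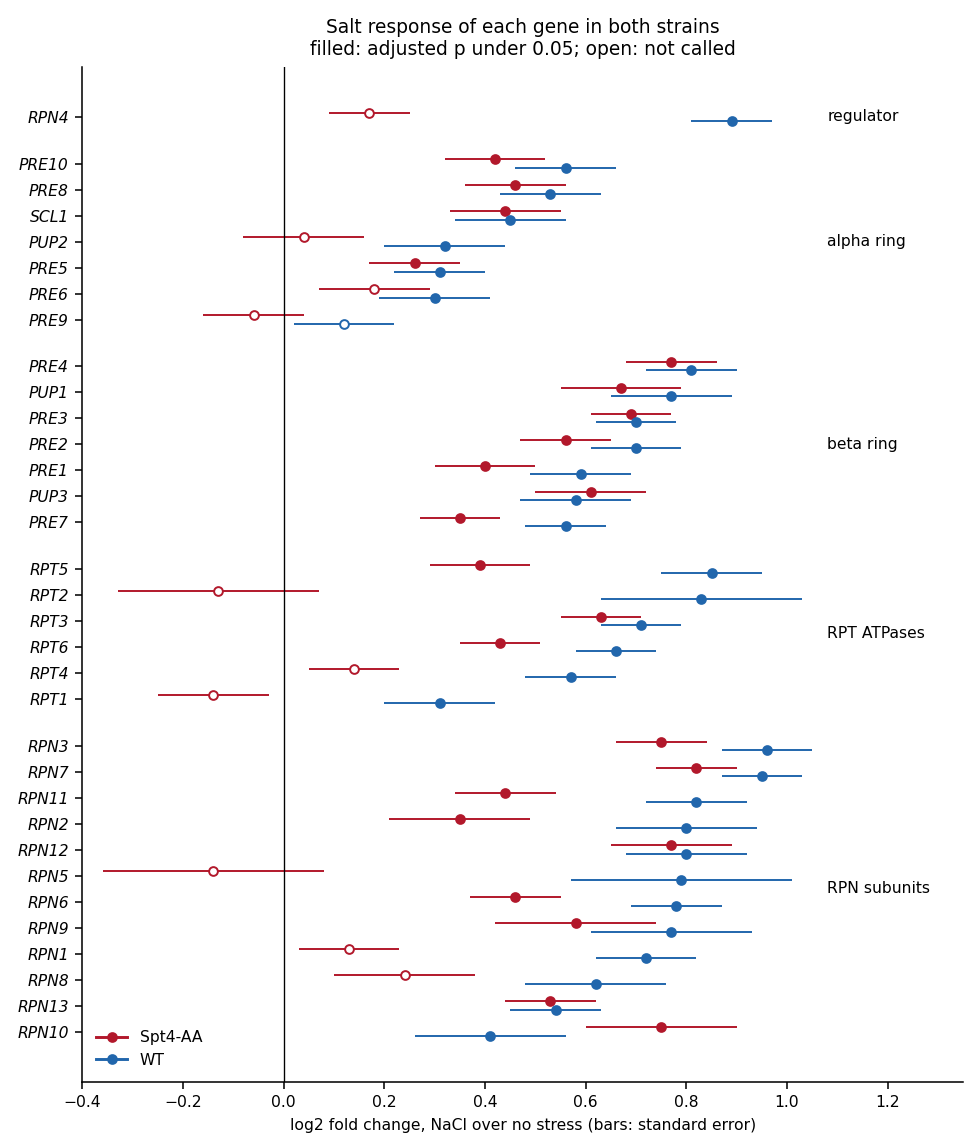
Salt response (log2FC, NaCl over no stress) of each of the 33 genes in Spt4-AA (red, upper point) and WT (blue, lower point), by class, with standard errors, filled where called at an adjusted p under 0.05. All WT points lie between 0.12 and 0.96, and the Spt4-AA points between -0.14 and 0.82.

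The alpha ring, which forms the gate of the core, had the smallest median response of the 4 classes in WT. Its median log2FC was 0.26 in Spt4-AA (4 of 7 called higher) and 0.32 in WT (6 of 7). *PRE10* (YOR362C), the highest of the ring in WT, had 270.1, 298.9 and 228.5 normalised CPM in Spt4-AA under NaCl against 203.9, 188.9 and 202.3 without stress (log2FC 0.42, edgeR adjusted p = 0.00156). Its WT values were 273.5, 260.5 and 267.1 under NaCl against 178.5, 192.1 and 174.1 without stress (log2FC 0.56, edgeR adjusted p = 0.000137). The stressed libraries of *PRE10* lay above the unstressed ones in both strains. *PRE9* (YGR135W), the only alpha gene that yeast can lose, was the single member not called in WT. It had 182.3, 162.8 and 135.0 normalised CPM in Spt4-AA under NaCl against 172.9, 161.9 and 165.7 without stress, so the groups overlapped (log2FC -0.06, 95% interval -0.28 to 0.16). WT cells had 169.7, 168.0 and 175.7 under NaCl against 166.1, 155.5 and 151.3 without stress (log2FC 0.12, 95% interval -0.10 to 0.33). A term for the 2 libraries numbered apart leaves replicate 3 alone (135.0) for stressed Spt4-AA. With it the difference in salt response of *PRE9* was -0.42, against -0.18 without it. Its window holds the same exact PACE as that of *PRE10*. *PRE8*, *SCL1* and *PRE5* were called higher in both strains, and *PUP2* and *PRE6* in WT.

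The beta ring, which carries the proteolytic sites, was called higher in all 7 genes in both strains, with a median log2FC of 0.61 in Spt4-AA and 0.70 in WT. *PRE4* (YFR050C), the highest in WT, had 324.9, 345.0 and 287.1 normalised CPM in Spt4-AA under NaCl against 188.3, 185.8 and 185.8 without stress (log2FC 0.77, edgeR adjusted p = 1.95e-06). Its WT values were 330.8, 331.1 and 301.1 under NaCl against 186.0, 183.4 and 179.1 without stress (log2FC 0.81, edgeR adjusted p = 7.86e-07). Stressed and unstressed libraries of *PRE4* were far apart and the strains overlapped. *PRE7* (YBL041W), the lowest in WT, had 244.8, 236.0 and 213.9 normalised CPM in Spt4-AA under NaCl against 181.4, 177.9 and 184.0 without stress (log2FC 0.35, edgeR adjusted p = 0.00145). WT cells had 259.7, 233.8 and 242.8 under NaCl against 165.1, 171.9 and 163.2 without stress (log2FC 0.56, edgeR adjusted p = 2.26e-05). The genes of the active sites, *PRE3* (caspase-like), *PUP1* (trypsin-like) and *PRE2* (chymotrypsin-like), had log2FC of 0.56 to 0.69 in Spt4-AA and 0.70 to 0.77 in WT.

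The Rpt ATPases were called higher in 3 of 6 genes in Spt4-AA (*RPT3*, *RPT5* and *RPT6*) and in 6 of 6 in WT, with a median log2FC of 0.26 in Spt4-AA and 0.69 in WT. *RPT5* (YOR117W) had 284.8, 269.4 and 286.6 normalised CPM in Spt4-AA under NaCl against 240.3, 194.2 and 206.4 without stress (log2FC 0.39, edgeR adjusted p = 0.00416). Its WT values were 320.2, 342.0 and 388.5 under NaCl against 211.7, 189.6 and 182.8 without stress (log2FC 0.85, edgeR adjusted p = 3.8e-06). All stressed WT libraries of *RPT5* lay above the stressed Spt4-AA libraries. *RPT1* (YKL145W) had 175.3, 172.1 and 176.4 normalised CPM in Spt4-AA under NaCl against 221.3, 169.3 and 187.9 without stress (log2FC -0.14, 95% interval -0.37 to 0.08). In WT it had 212.3, 212.0 and 241.2 under NaCl against 196.7, 174.4 and 164.5 without stress (log2FC 0.31, edgeR adjusted p = 0.0164). This WT call was lost without replicate 2 or 3 of unstressed WT or replicate 3 of stressed WT (edgeR adjusted p from 0.00927 to 0.0804 over the 12 fits).

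Of the 12 *RPN* genes, 9 were called higher in Spt4-AA and 12 in WT, with a median log2FC of 0.50 in Spt4-AA and 0.78 in WT. *RPN3* (YER021W), a lid subunit, was the highest in WT. It had 271.9, 226.5 and 267.6 normalised CPM in Spt4-AA under NaCl against 150.8, 155.3 and 148.6 without stress (log2FC 0.75, edgeR adjusted p = 2.87e-06). WT cells had 280.4, 279.1 and 293.6 under NaCl against 146.1, 138.7 and 152.9 without stress (log2FC 0.96, edgeR adjusted p = 1.35e-07). The stressed WT libraries of *RPN3* were all above the unstressed ones, with a fold change of 1.95. *RPN10* (YHR200W), a ubiquitin receptor, was the lowest in WT. It had 272.7, 366.2 and 216.6 normalised CPM in Spt4-AA under NaCl against 169.3, 168.3 and 171.8 without stress (log2FC 0.75, edgeR adjusted p = 0.000587). In WT it had 233.2, 201.7 and 182.9 under NaCl against 143.5, 170.1 and 152.3 without stress (log2FC 0.41, edgeR adjusted p = 0.0279), a call lost in 4 of the 12 fits without 1 library. Its 3 stressed Spt4-AA libraries were the most scattered of any member in that group (coefficient of variation 26.5%). *RPN11*, the deubiquitinase of the lid, and *RPN13*, the other ubiquitin receptor, were called higher in both strains.

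The strains were next compared directly. Without stress no member was called in either direction, where 0.265% of all genes tested were higher and 0.563% lower in Spt4-AA (0.48% with a change of at least 2-fold in either direction). At an unadjusted p under 0.05 edgeR gave 2 members, *PUP1* and *PRE6*, and DESeq2 called 0 after adjustment. *PUP1* (YOR157C), with the smallest p, had 185.0, 218.5 and 196.6 normalised CPM in Spt4-AA against 133.8, 157.1 and 154.6 in WT, which did not overlap (log2FC 0.43, 95% interval 0.17 to 0.68, edgeR adjusted p = 0.176). It was called higher when only the unstressed groups were fitted and under library totals alone. The log2FC of the other 32 members without stress lay between -0.15 and 0.28.

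Under NaCl 8 of the 33 members were called lower and 2 higher in Spt4-AA than in WT, beside 23.4% of all genes lower and 24.3% higher. The share of members called lower was near that of all genes. No member was at least 2-fold apart (10.9% of all genes). The lower members were *RPN4*, 4 ATPase genes (*RPT1*, *RPT2*, *RPT4* and *RPT5*), *RPN1* and *RPN2*, which encode the scaffolds of the base, and the lid gene *RPN5*. The higher members were *RPN10* and *PUP1*. *RPN5* (YDL147W) had 68.3, 52.7 and 81.5 normalised CPM in stressed Spt4-AA cells against 94.5, 103.0 and 167.7 in stressed WT cells (log2FC -0.85, standard error 0.22, edgeR adjusted p = 0.00541). *RPT2* (YDL007W) had 109.5, 94.5 and 122.6 in stressed Spt4-AA cells against 152.0, 164.7 and 233.5 in stressed WT cells (log2FC -0.75, standard error 0.20, edgeR adjusted p = 0.00716). In both genes the strains did not overlap and replicate 3 of stressed WT stood above its group. *RPN10* (log2FC 0.47, edgeR adjusted p = 0.0212) and *PUP1* (log2FC 0.33, edgeR adjusted p = 0.0341) were the 2 highest. *PUP1* had 338.6, 345.3 and 268.2 in stressed Spt4-AA cells against 278.9, 253.8 and 226.2 in stressed WT cells, which overlapped. *PRE6*, the third, had 223.2, 239.4 and 171.3 in stressed Spt4-AA cells against 192.1, 181.0 and 192.6 in stressed WT cells (log2FC 0.16, 95% interval -0.07 to 0.40).

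The 10 calls under NaCl depended on the libraries. The term for the 2 libraries numbered apart leaves replicate 3 alone for stressed Spt4-AA, so only log2FC are given from it. Without replicate 3 of stressed WT 5 of the 10 calls were left, and without replicate 2 of stressed Spt4-AA 6 were left, neither with *RPN10* or *PUP1*. Under library totals alone 20 members were lower and none higher. In *RPN4* the log2FC was -0.56 with the library-number term. With that term the log2FC was -0.33 in *RPT1*, -0.33 in *RPT4* and -0.29 in *RPT5*, against -0.35, -0.34 and -0.32 without it. The log2FC was smaller with the term in *RPT2* (-0.58), *RPN5* (-0.58), *RPN1* (-0.30) and *RPN2* (-0.17), and near 0 in *RPN10* (0.07) and *PUP1* (0.08).

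In the difference in salt response 7 members were called lower and none higher, beside 11.0% of all genes lower and 15.0% higher. They were *RPN4*, *RPT1*, *RPT2*, *RPT4*, *RPT5*, *RPN1* and *RPN5*. None of the 14 core genes was called (at an unadjusted p under 0.05 edgeR gave 0 of the 14, and DESeq2 called 0 after adjustment), and 6 of the 18 genes of the 19S particle were. The median difference was -0.12 in the alpha ring, -0.10 in the beta ring, -0.45 in the ATPases and -0.27 in the *RPN* genes, and -0.007 over all genes tested. The 3 most negative values were -0.96 in *RPT2* (edgeR adjusted p = 0.0228), -0.92 in *RPN5* (edgeR adjusted p = 0.0383) and -0.72 in *RPN4*. In unstressed Spt4-AA cells *RPT2* had 163.2, 96.0 and 98.0 normalised CPM, against 114.6, 92.7 and 102.7 in unstressed WT cells. *RPN5* had 92.4, 63.8 and 66.4 normalised CPM in unstressed Spt4-AA cells against 79.8, 61.3 and 70.7 in unstressed WT cells. In both genes replicate 1 stood above the rest of its group in either strain. The 3 highest differences were 0.34 in *RPN10* (95% interval -0.12 to 0.80), 0.04 in *PUP3* (-0.30 to 0.38) and -0.01 in *SCL1* (-0.34 to 0.33), none of them called.

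*RPN1*, which docks ubiquitin receptors on the base, had 255.6, 269.1 and 303.1 normalised CPM in Spt4-AA under NaCl against 277.9, 241.9 and 238.7 without stress, and 353.1, 364.0 and 405.7 in WT under NaCl against 234.8, 222.3 and 222.6 without stress. Stressed and unstressed libraries overlapped in Spt4-AA and were apart in WT, and the difference was -0.60 (95% interval -0.89 to -0.30, edgeR adjusted p = 0.00592). *RPT4* had 181.5, 179.1 and 180.7 normalised CPM in Spt4-AA under NaCl against 182.8, 147.2 and 162.6 without stress, and 217.3, 220.5 and 245.1 in WT under NaCl against 157.1, 148.2 and 153.7 without stress. It showed the same arrangement, with a difference of -0.44 (95% interval -0.71 to -0.16, edgeR adjusted p = 0.022). *RPN2*, the other scaffold, had 408.0, 333.7 and 457.2 normalised CPM in Spt4-AA under NaCl against 346.9, 274.2 and 317.2 without stress, and 434.0, 505.5 and 607.4 in WT under NaCl against 317.9, 290.7 and 279.2 without stress. Its stressed libraries overlapped between the strains. The difference of -0.45 was not called (95% interval -0.88 to -0.02, edgeR adjusted p = 0.116), and its call under NaCl (log2FC -0.37, edgeR adjusted p = 0.0458) held in 4 of the 12 fits without 1 library. *RPN1*, *RPT4* and *RPN2* were taken up in full after their values were seen.

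*PUP3*, of the beta ring, had 284.4, 314.2 and 237.0 normalised CPM in Spt4-AA under NaCl against 178.1, 185.4 and 182.5 without stress, and in WT 294.8, 262.2 and 237.6 under NaCl against 162.2, 190.3 and 180.3 without stress. *SCL1*, of the alpha ring, had 231.9, 245.6 and 207.8 in Spt4-AA under NaCl against 154.9, 176.1 and 173.8 without stress, and in WT 250.0, 237.9 and 186.6 under NaCl against 158.4, 168.5 and 167.1 without stress. Both genes rose in each strain and overlapped between the strains. Summed over the 14 core genes, normalised CPM were 3500, 3654 and 3004 in stressed Spt4-AA libraries and 3470, 3305 and 3188 in stressed WT libraries, which overlapped. Summed over the 18 genes of the 19S particle they were 3609, 3477 and 3642 in stressed Spt4-AA libraries and 4003, 4072 and 4502 in stressed WT libraries, which did not. Without stress the sums for the core were 2476, 2457 and 2502 in Spt4-AA and 2231, 2339 and 2261 in WT, which did not overlap. For the 19S particle they were 2933, 2529 and 2665 in Spt4-AA and 2640, 2470 and 2519 in WT, which did.

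The calls of the difference also rested on single libraries. *RPN4* and *RPN1* were called in 12 of the 12 fits without 1 library, *RPT4* in 9, *RPT2* in 8, *RPN5* in 6, and *RPT1* and *RPT5* in 4 each. The number of members called lower was 2 without replicate 2 of unstressed WT, replicate 3 of stressed WT or replicate 1 of unstressed Spt4-AA, in each case *RPN4* and *RPN1*. It was 3 without replicate 3 of unstressed WT and 4 without replicate 1 or 2 of stressed Spt4-AA. Without replicate 3 of stressed Spt4-AA 9 members were lower and 1, *RPN10*, was higher. With the library-number term, and so with replicate 3 alone for stressed Spt4-AA, the difference was -0.68 in *RPN4* and -0.46 in *RPN1*. The difference was -0.44 in *RPT1*, -0.44 in *RPT4* and -0.42 in *RPT5*, against -0.46, -0.44 and -0.46 without the term. It was -0.79 in *RPT2* and -0.66 in *RPN5*.

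Coding length ran with these differences. The core genes have 597 to 867 coding bases and the 19S genes 471 to 2982 (median 1297.5). Across the 32 subunit genes Spearman's rho of coding length with the difference in salt response was -0.74, and across 5716 protein-coding genes it was -0.35; the points share the same 12 libraries, and genes are not independent replicates. Within the core it was -0.24 (14 genes) and within the 19S particle -0.73 (18 genes). For genes of the core's length range the median difference over the 783 protein-coding genes was 0.12, against -0.11 in the core. For the range of the 19S genes it was -0.01 over 4483 genes, against -0.35 in the 19S particle. With the length offset 6 members were called lower, 5 of them among the 7 (*RPN4*, *RPT2*, *RPT4*, *RPT5* and *RPN5*), with *RPN11* added. *RPN1*, the longest member, then had a difference of -0.25 (edgeR adjusted p = 0.173). Under NaCl the length offset gave a log2FC of -0.09 in *RPN1* (edgeR adjusted p = 0.412), -0.03 in *RPN2* (edgeR adjusted p = 0.798) and 0.25 in *PUP1* (edgeR adjusted p = 0.0659), which ended these 3 calls.

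**Figure D4:**
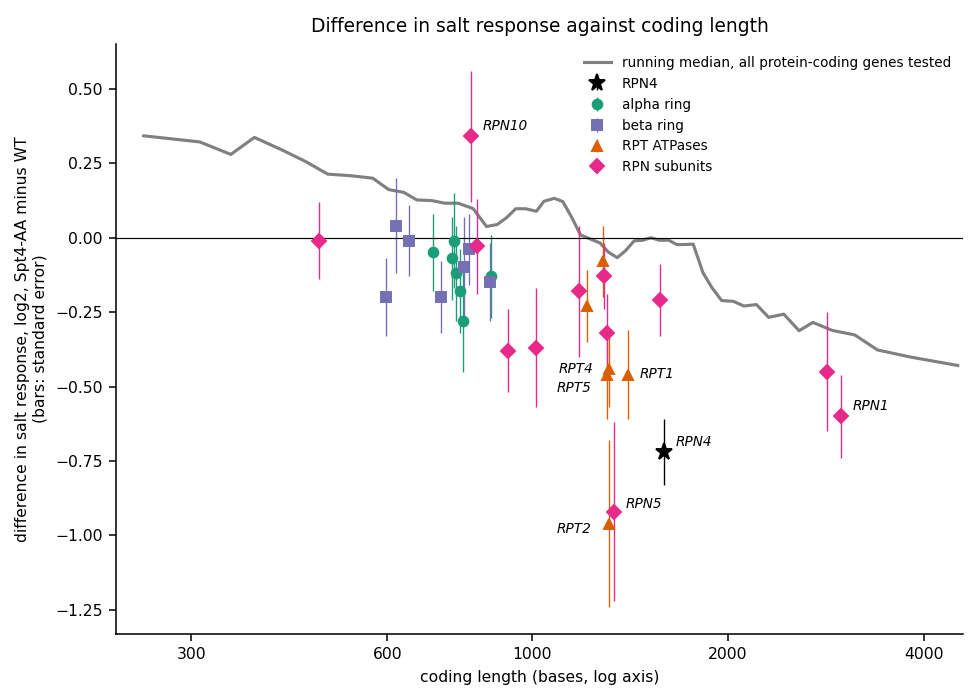
Difference in salt response (log2, Spt4-AA minus WT, with standard errors) against coding length (log axis) for *RPN4* and the 32 subunit genes by class, with the running median over protein-coding genes tested (grey line). *RPN4* lies at -0.72 and *RPT2* at -0.96, while the core genes lie between -0.28 and 0.04.

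Levels were compared between genes per kb of coding length. In unstressed WT the subunit genes spanned 52.7 ± 6.9 normalised CPM per kb in *RPN5* to 287.4 ± 23.1 in *PUP3* (SD, n = 3), and *RPN4* was the lowest of the 33 at 38.7 ± 1.3. *PUP3* and *PRE8* (284.1 ± 21.8) overlapped at the top of the order, while *RPN4* (37.3 to 39.9) and *RPN5* (45.8 to 59.6) did not at the bottom. The 13 highest genes were 12 of the core genes together with *RPN10*. Against all protein-coding genes *PUP3* stood at percentile 91.0 and *RPN4* at percentile 58.7. In stressed WT cells *RPN4* reached 71.7 ± 0.6 per kb, and in stressed Spt4-AA cells 47.7 ± 1.6, where its range (45.9 to 48.8) fell within that of *RPN5* (39.4 to 60.9). The spread of the 32 subunit genes within a library, as the SD of log2 normalised CPM per kb, was 0.69 to 0.96 in stressed Spt4-AA libraries and 0.50 to 0.72 in stressed WT libraries, against 2.28 to 2.58 over all protein-coding genes of the 12 libraries.

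**Figure D5:**
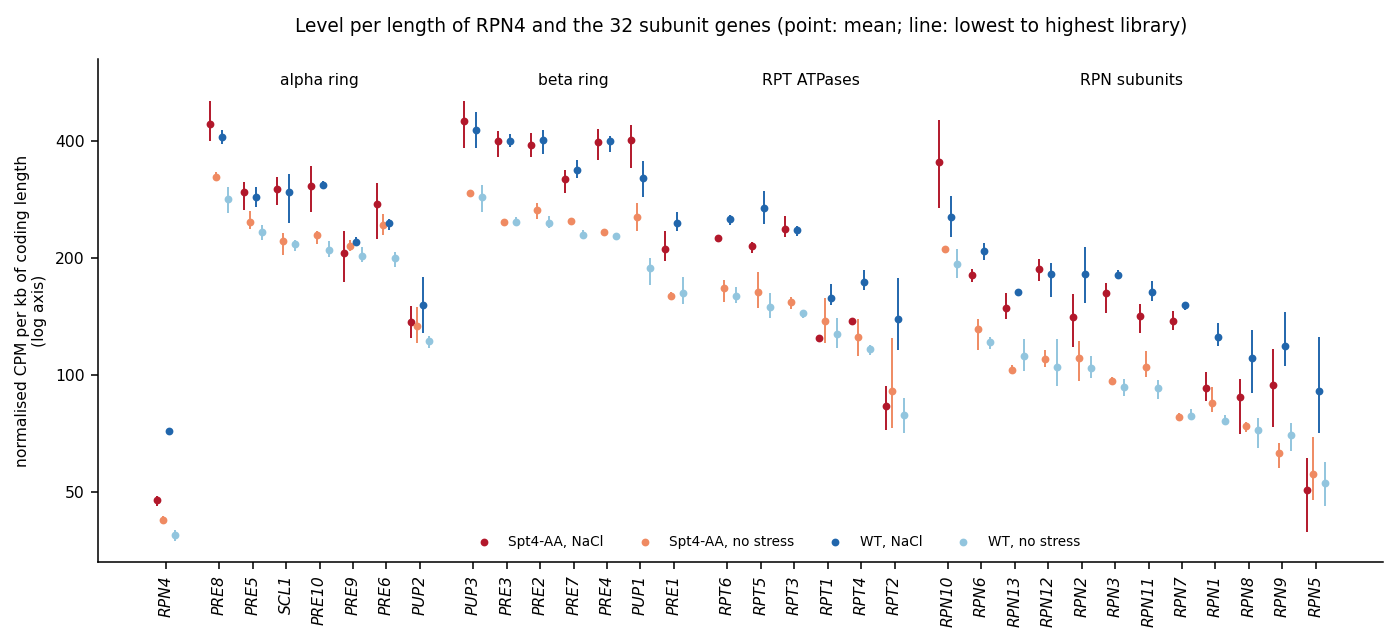
Normalised CPM per kb of coding length (log axis) of *RPN4* and the 32 subunit genes, ordered within each class by the level in unstressed WT, as means of 3 libraries (points) with lines from the lowest to the highest library. In unstressed WT *RPN4* is the lowest gene at 38.7 and *PUP3* the highest at 287.4.

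The 5 subunit genes without an exact PACE (*PRE5*, *PUP1*, *RPN8*, *RPN10* and *RPN13*) did not stand apart in the range of either salt response. Their log2FC was 0.24 to 0.75 in Spt4-AA (median 0.53) and 0.31 to 0.77 in WT (median 0.54). That of the 27 genes with a PACE was -0.14 to 0.82 in Spt4-AA (median 0.43) and 0.12 to 0.96 in WT (median 0.70). In the difference the 5 ranged from -0.37 to 0.34 (median -0.05), and the 27 from -0.96 to 0.04 (median -0.20). *RPN10* and *PUP1*, the members called higher in Spt4-AA under NaCl, are both among the 5. Outside the members 45 windows hold a PACE, 44 of them of genes tested, and 7 of these are the same sites seen from a divergent neighbour. Of the 37 other tested genes with a site of their own 18 were higher and 7 lower upon NaCl in Spt4-AA, beside 34.9% and 33.4% of all genes, and 23 were higher (62.2%) and 5 lower in WT, beside 36.4% and 33.9%. In the difference in salt response 9 of the 37 were lower and none higher, beside 11.0% and 15.0% of all genes, with a median of -0.35.

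The pathway around the proteasome was read from 5 lists of 38 genes. Beside them, 34.9% of all genes tested were higher upon NaCl and 33.4% lower in Spt4-AA, and 36.4% and 33.9% in WT. Of 10 assembly chaperones, 9 were called higher in Spt4-AA and 8 in WT, none lower. *TMA17*, which acts in base assembly, was the highest in WT. It had 95.7, 88.3 and 79.9 normalised CPM in Spt4-AA under NaCl against 10.7, 13.2 and 11.3 without stress (log2FC 2.91), and in WT 189.3, 182.0 and 188.9 under NaCl against 12.6, 13.4 and 13.7 without stress (log2FC 3.82). Its difference in salt response was -0.91 (edgeR adjusted p = 0.000518). In the difference 1 of the 10 chaperone genes was higher and 2 were lower, beside 15.0% and 11.0% of all genes. The higher one, *POC4*, a chaperone of the alpha ring that was taken up after its values were seen, had 34.2, 39.0 and 27.5 normalised CPM in Spt4-AA under NaCl against 20.7, 16.9 and 19.9 without stress, and in WT 20.2, 18.4 and 15.8 under NaCl against 19.7, 20.9 and 21.8 without stress. Its stressed Spt4-AA libraries lay above all others, and its difference was 1.01 (edgeR adjusted p = 0.00265). *IRC25*, a chaperone of the alpha ring, was the lowest in WT at -0.32 (95% interval -0.66 to 0.01). *UMP1*, the maturation factor of the core, rose by 0.44 in Spt4-AA (edgeR adjusted p = 0.000336) and 0.54 in WT (edgeR adjusted p = 4.13e-05).

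Of 9 proteasome-associated and shuttle genes, 7 were higher and 1 lower in Spt4-AA, and 8 higher and none lower in WT. The shares of all genes were 34.9% higher and 33.4% lower in Spt4-AA, and 36.4% and 33.9% in WT. *ECM29*, which tethers core and 19S particle and holds a PACE, rose by 1.52 in Spt4-AA (edgeR adjusted p = 3.41e-08) and 1.87 in WT (edgeR adjusted p = 2.15e-09). *RAD23*, a ubiquitin shuttle, was lower in Spt4-AA by a log2FC of -0.47 (edgeR adjusted p = 0.000535) and had -0.19 in WT (95% interval -0.40 to 0.02). Of the 4 ubiquitin genes, *UBI4*, the stress-induced polyubiquitin gene, rose by 3.22 in Spt4-AA (edgeR adjusted p = 1.97e-10) and 3.61 in WT (edgeR adjusted p = 4.06e-11). The other 3, which encode ubiquitin fused to a ribosomal protein, fell in both strains, and *RPL40B* had log2FC of -1.03 in Spt4-AA (edgeR adjusted p = 0.000381) and -2.28 in WT (edgeR adjusted p = 1.3e-07). *RPL40A* and *RPL40B* encode the same protein from near-identical copies. Only uniquely mapped reads were counted, so reads that match both copies would be left out of both counts. The ubiquitin repeats of *UBI4* are close in sequence to both genes. *UBI4* and *RPL40B* thus moved in opposite directions, and the difference in salt response of *RPL40B* was 1.25 (edgeR adjusted p = 0.00518). Under NaCl *RPL40B* had 671.4, 744.5 and 371.4 normalised CPM in Spt4-AA against 301.8, 253.1 and 222.6 in WT. Replicates 1 and 2 of stressed Spt4-AA, numbered apart, thus stood far above replicate 3.

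Where 34.9% of all genes were higher and 33.4% lower in Spt4-AA, and 36.4% and 33.9% in WT, a list of 11 genes was read. Of these genes of ubiquitin activation, the ligases that act on Rpn4 and the Cdc48 complex, 6 were higher in Spt4-AA and 9 in WT. None was lower in Spt4-AA and 1 in WT. *UFD1*, a cofactor of Cdc48, was the highest in WT with 1.23 (edgeR adjusted p = 1.14e-07), and 0.85 in Spt4-AA (edgeR adjusted p = 9.01e-06). *CDC48*, the segregase that extracts ubiquitinated proteins, rose by 0.68 in Spt4-AA (edgeR adjusted p = 5.47e-05) and 1.17 in WT (edgeR adjusted p = 1.36e-07), a difference of -0.49 (edgeR adjusted p = 0.0272). *RAD6*, the conjugating enzyme of the Ubr ligases, was the lowest in WT at -0.27 (edgeR adjusted p = 0.0322), a call lost in 5 of the 12 fits without 1 library. In the difference in salt response 5 of the 11 were lower and none higher, beside 11.0% and 15.0% of all genes.

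The 4 genes of the factors with reported sites in the *RPN4* promoter were all called higher in WT (36.4% of all genes). In Spt4-AA 1 of the 4 (*PDR3*) was called higher (34.9% of all genes). *HSF1*, the heat shock factor, was the highest with 0.86 in WT (edgeR adjusted p = 0.000777) and 0.14 in Spt4-AA (95% interval -0.26 to 0.55). *YAP1* had 0.23 in Spt4-AA (95% interval -0.06 to 0.52) and 0.64 in WT (edgeR adjusted p = 0.000647). *PDR3* rose by 0.53 in Spt4-AA (edgeR adjusted p = 0.00389) and 0.76 in WT (edgeR adjusted p = 0.00017), and *PDR1* was the lowest with 0.47 in WT (edgeR adjusted p = 0.0266), a call lost in 3 of the 12 fits without 1 library (replicate 2 or 3 of unstressed WT or replicate 3 of stressed WT, edgeR adjusted p up to 0.131). None of the 4 was called in the difference in salt response (2 at an unadjusted p under 0.05 by edgeR, and the log2FC of *HSF1* was -0.72 with a 95% interval of -1.29 to -0.15).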

How the data were processed

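RNA of 12 cultures was sequenced as single-end 50-base reads of poly(A)-selected, stranded libraries. Per the methods of the study, the authors aligned reads with TopHat2 2.1.0 to sacCer3 and counted uniquely mapped reads per gene with featureCounts 1.5.1 on the Ensembl R64 annotation. The deposited values are these raw counts, not normalised, and whether featureCounts used strand is not given in the sources used here. The processing notes also name DESeq2 1.14.1. All 33 members lie in sequence that is unique at 50 bases and overlap no other RefSeq gene.

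Counts were fitted with edgeR 4.0.16 in R 4.3.3: genes with low counts were removed by filterByExpr, TMM factors were computed, and a robust quasi-likelihood model with 1 coefficient per group was fitted to all 12 libraries, so the groups share one estimate of the spread. Library totals were 12903162 to 21909524 (median 15580005), the common dispersion was 0.0166, and the median standard error of a log2FC was 0.144 for the salt response of Spt4-AA, 0.145 for that of WT and 0.202 for the difference. The 12 within-group pairs of libraries differed beyond sampling noise (chi-square per degree of freedom at least 6.46). The code was tested on simulated counts. Intervals are 95% intervals from the fitted standard errors.

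The members and the gene lists were chosen with earlier results of these data known. By rule, values in every library are given for *RPN4*, for the highest and lowest member of each class in WT upon NaCl, for the 3 highest and 3 lowest in the difference and under NaCl, and for the smallest p without stress. Of each list, the highest and lowest gene in WT and 7 set genes (*UMP1*, *UBI4*, *RAD23*, *CDC48*, *YAP1*, *PDR3* and *HSF1*) are given. *RPN1*, *RPT4*, *RPN2* and *POC4* were added after their values were seen. Alternatives were DESeq2 1.42.0, other scaling factors, other filters, a replicate block, a term for library numbers, each comparison fitted on its own groups, and each library left out. Chosen after seeing the data were a length offset and a fit without both libraries numbered apart. The term and the fit without both libraries rest stressed Spt4-AA on the same library, replicate 3.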

Additional observations from a re-analysis of the deposited data

Results flagged for a closer look

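For 6 subunit genes, *RPN4* and genes of 4 of the 5 pathway lists, the salt response differed between the strains in the interaction test of edgeR after Benjamini-Hochberg adjustment. The differences, Spt4-AA minus WT on the log2 scale, were -0.96 in *RPT2*, -0.92 in *RPN5*, -0.72 in *RPN4*, -0.60 in *RPN1*, -0.46 in *RPT1*, -0.46 in *RPT5* and -0.44 in *RPT4* among the members. In the lists 1 of the 10 assembly chaperones was higher and 2 were lower, and 3 of the 9 associated and shuttle genes were lower. Of the 4 ubiquitin genes 3 were higher, and 5 of the 11 genes of ubiquitin activation, ligases and the Cdc48 complex were lower. Over all genes tested 15.0% were higher and 11.0% lower. Among the list genes named by rule the differences were -0.91 in *TMA17*, -0.49 in *CDC48* and 1.25 in *RPL40B*. In stressed Spt4-AA *RPL40B* had 671.4 and 744.5 normalised CPM in the 2 libraries numbered apart and 371.4 in replicate 3. The other ubiquitin genes called, *RPL40A* (1243.7, 1584.1 and 616.4) and *RPS31* (3223.9, 3490.6 and 1737.8), were likewise lowest in replicate 3. The term for the 2 libraries numbered apart leaves replicate 3 alone for stressed Spt4-AA. With it the differences were -0.79 in *RPT2*, -0.66 in *RPN5*, -0.68 in *RPN4*, -0.46 in *RPN1*, -0.44 in *RPT1*, -0.42 in *RPT5* and -0.44 in *RPT4*. Groups of 3 libraries are too small for the test of a sample that stands apart.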

How the results depend on the processing

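The counts of members called were 21 to 24 higher in Spt4-AA and 28 to 32 higher in WT upon NaCl when 1 library was left out, and none was lower in either. Under NaCl 0 to 3 were higher and 5 to 10 lower in Spt4-AA than in WT, without stress 0 were called, and in the difference 0 to 1 were higher and 2 to 9 lower. Under library totals alone 0 members were higher and 20 lower under NaCl, 1 (*PUP1*) was higher without stress, and 11 were lower in the difference. That scaling moved the median log2FC of all genes to 0.16 in Spt4-AA, 0.38 in WT, -0.22 under NaCl and -0.20 in the difference, and that of the 33 members to 0.58 in Spt4-AA, 1.04 in WT, -0.34 under NaCl and -0.38 in the difference. The share of higher genes among all calls under NaCl was 50.9% with TMM factors, 33.6% with library totals and 60.7% with upper-quartile factors. In the difference it was 57.7% with TMM factors, 48.9% with library totals and 72.0% with upper-quartile factors, which left 3 members lower. In WT upon NaCl it was 51.8% with TMM factors, 67.4% with library totals and 45.5% with upper-quartile factors. The upper-quartile factors left 27 members higher in WT, with a median log2FC of 0.57 against 0.70 with TMM factors. With the term for library numbers, and without both libraries numbered apart, replicate 3 alone stood for stressed Spt4-AA, so calls are not counted. The median log2FC of the 33 members with the term was 0.35 in Spt4-AA upon NaCl, -0.17 under NaCl and -0.26 in the difference. Without both libraries it was 0.35, -0.16 and -0.26. Fitting only the groups compared gave 0 higher under NaCl and 1 higher without stress, and the length offset 1 higher under NaCl. With at least a 2-fold change required as well, 0 members were called upon NaCl in either strain or under NaCl between the strains. The cause of these shifts was not tested.

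The direction of several small changes turned. With library totals, the log2FC in Spt4-AA upon NaCl was 0.08 in *PRE9* and 0.0077 in *RPT1*, and in WT it was 0.02 in *IRC25*, 0.16 in *RAD23* and 0.07 in *RAD6*. With upper-quartile factors *PRE9* had -0.0042 in WT. *PRE6* under NaCl was -0.06 with library totals, -0.14 with the library-number term and -0.13 without both libraries. The difference of *PUP3* was -0.17 with library totals, -0.20 with the term, -0.10 with the length offset and -0.20 without both libraries. That of *RPN10* was -0.06 with the term and -0.06 without both, and that of *SCL1* was 0.09 with upper-quartile factors. With 1 library left out the log2FC ranged over -0.16 to 0.05 in *PRE9* (Spt4-AA upon NaCl), -0.06 to 0.14 in *PUP3* and -0.13 to 0.07 in *SCL1* (difference).

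With a replicate block 23 members were higher in Spt4-AA and 32 in WT upon NaCl, 2 were higher and 8 lower under NaCl, and 7 were lower in the difference, each the same genes, and the block changed no call of a member. The labels number the replicates alike, but in 18 same-numbered pairs of libraries the deviations from group means correlated by -0.44 to 0.42, with 9 above 0.1, and 2 of 12 libraries correlated best with their own number, so the numbers were not taken as pairs. DESeq2 added *RPN11* to the difference and changed no other call of a member. In all alternative fits with at least 2 libraries behind each group, *RPN4* kept its call for WT upon NaCl, under NaCl and in the difference. The median standard error of the difference was 0.202 over all genes, and the smallest difference called among the members was -0.44, so smaller ones are not shown to be absent.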
